A study of Rattus norvegicus and Mus musculus and Macaca mulatta with 84 samples.

Results

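Laminins, nidogens and the basement membrane proteoglycans perlecan and agrin form a set of 10 genes, taken by symbol from the deposited RNA tables: Lama2, Lama3, Lama5, Lamb1, Lamb2, Lamc1, Nid1, Nid2, Hspg2 and Agrn. The mouse table held all 10 among its 48440 genes, and the rat table held 8 among its 32754. Lama3 and Hspg2 had no row under those symbols in rats. All members with a row passed a mean of at least 10 normalised counts over their table and were tested.

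The study profiled small RNA across models of diabetes and treatments in rats, mice and monkeys. It profiled polyadenylated RNA in UCD-T2DM rats and in mice whose microRNA miR-29 was perturbed with a locked nucleic acid. Of its 84 samples, 31 RNA libraries from liver are described here. The 20 rat libraries came from UCD-T2DM rats, a strain that becomes obese and spontaneously diabetic: 5 were prediabetic, 4 had been diabetic for 2 weeks, 5 for 3 months and 6 for 6 months. The 11 mouse libraries came from C57BL/6J mice: 5 treated with LNA-29, a locked nucleic acid against miR-29, and 6 controls; the sources used here give no dose, no duration and no nature of the control. Prediabetic rats of the same strain, and no lean or non-diabetic strain, were the reference for each stage, and ages are not given in the labels. Age may rise with the duration of diabetes, and the 2 cannot be told apart here. The labels number the replicates without saying that each is a separate animal, so each p-value reflects sample-to-sample spread that may be purely technical.

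Basement membranes are thin sheets of matrix beneath epithelia and endothelia and around muscle, fat and nerve. Each laminin is a trimer of an alpha, a beta and a gamma chain that polymerises on the cell surface; nidogens bridge laminin to the type IV collagen network, and the heparan sulfate proteoglycans perlecan (Hspg2) and agrin bind laminin and growth factors. In healthy liver a continuous basement membrane is found around bile ducts, nerves and vessels, while sinusoids have only a sparse, discontinuous one; laminin deposition along sinusoids is a known feature of fibrotic liver.

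The sequence behind the mouse treatment is that of miR-29, shown because its 3 mature forms share the bases that pair with targets. They are rat sequences from RefSeq (GRCr8), written 5′ to 3′ with the seed, bases 2 to 8, in capitals:
rno-miR-29a-3p: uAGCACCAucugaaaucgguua
rno-miR-29b-3p: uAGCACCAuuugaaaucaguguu
rno-miR-29c-3p: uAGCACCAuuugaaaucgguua

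All 3 forms carried the same seed, AGCACCA, and were the only ones with it among 693 mature rat miRNAs of the table. miR-29a-3p and miR-29c-3p end alike, while miR-29b-3p has other last bases and is 23 bases long against 22.

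Promoter entries were found for 8 of the 10 members in the RefSeq table (GRCr8). The 250 bases upstream of the start are shown for the 3 members that rose together at 3 months, Lamb1 (chr6:53562846-53563095, plus strand), Nid1 (chr17:93069036-93069285, plus strand) and Lama2 (chr1:19491896-19492145, plus strand), with each GC box (GGGCGG, or CCGCCC on the other strand) in capitals:
Lamb1: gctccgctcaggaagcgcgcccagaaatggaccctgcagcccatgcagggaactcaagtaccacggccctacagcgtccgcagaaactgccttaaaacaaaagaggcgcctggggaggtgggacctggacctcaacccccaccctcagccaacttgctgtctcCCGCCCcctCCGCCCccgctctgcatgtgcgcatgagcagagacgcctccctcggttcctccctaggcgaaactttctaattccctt
Nid1: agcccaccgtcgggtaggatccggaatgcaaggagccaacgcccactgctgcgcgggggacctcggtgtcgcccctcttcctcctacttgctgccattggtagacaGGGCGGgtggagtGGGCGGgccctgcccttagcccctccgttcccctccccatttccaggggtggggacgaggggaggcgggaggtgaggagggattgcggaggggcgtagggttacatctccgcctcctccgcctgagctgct
Lama2: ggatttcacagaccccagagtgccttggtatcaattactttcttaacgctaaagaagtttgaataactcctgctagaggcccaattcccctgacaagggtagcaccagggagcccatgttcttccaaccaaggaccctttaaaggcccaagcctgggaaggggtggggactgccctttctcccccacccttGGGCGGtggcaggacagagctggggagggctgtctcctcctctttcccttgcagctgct

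The GC box is the motif bound by factors of the Sp family. It occurred 2 times upstream of Lamb1, 2 times upstream of Nid1 and 1 time upstream of Lama2, and 30.5% of 33469 promoters of this length held it. It was not particular to the members that rose: the windows of Lamc1 and Lama5, neither of which passed in rats, held 5 and 4, with a GC content of 71.2% and 72.8%, while that of Agrn held 0. GC content was 62.0% for Lamb1, 68.0% for Nid1 and 55.6% for Lama2, against a median of 51.2% over all promoters. None of the 3 held TATAAA on either strand, which 12.9% of promoters did, and Nid1 and Lama2 each held 1 CCAAT (or ATTGG), which 34.0% of promoters did. The shared letters describe these windows only.

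In diabetic rats the members did not move as a block. A gene was called changed where the Benjamini-Hochberg adjusted p of limma, over all 13640 rat or 14596 mouse genes tested, was under 0.05. At 3 months 3 of 8 members rose (Lama2, Lamb1 and Nid1) and none fell, where 16.5% of all genes were called in either direction and 7.76% as higher. At 6 months Lamb1 was still higher and Agrn was lower, 2 of 8 members, where 21.1% of all genes were called, 11.0% higher and 10.0% lower. At 2 weeks 0 of 8 members passed, and limma called 0% of all genes (1077 of 13640 had an unadjusted p under 0.05). Between 6 months and 2 weeks 0 of 8 members passed, where 8.82% of all genes were called. The median log2 change over the members was 0.30 at 2 weeks, 0.11 at 3 months and 0.07 at 6 months, beside 0.02, 0.02 and 0.01 over all genes. The 3 stages share the 5 prediabetic libraries, so their values are given side by side and are not independent of each other.

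**Figure D1:**
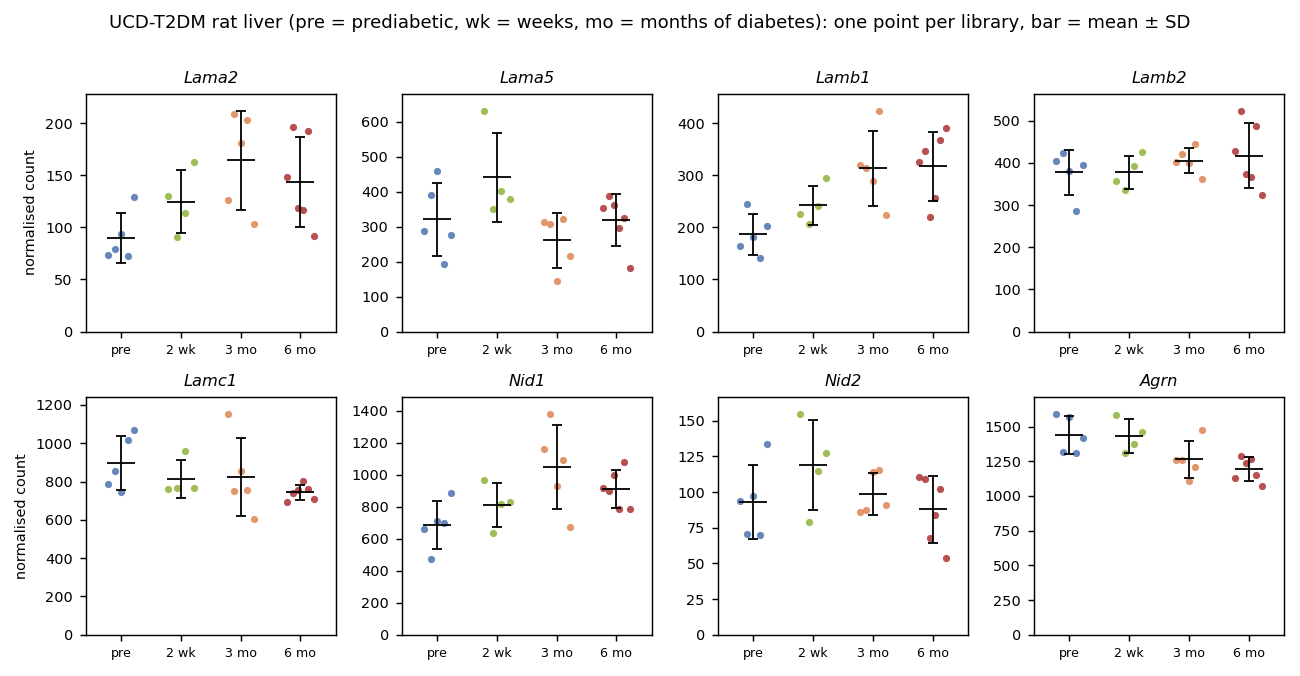
Normalised counts (vertical axis, from 0) of the 8 members with a rat row in each of 20 liver libraries, by stage of diabetes; points are libraries, and horizontal marks with bars are means ± SD. Lamb1 rises from a mean of 187 in prediabetic rats to 314 at 3 months and 317 at 6 months, while Agrn falls from 1439.7 to 1191.

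The beta 1 chain, Lamb1, part of most widely expressed laminins, was the only rat member called at both later stages. Its normalised counts in the prediabetic livers were 165, 244, 181, 141 and 203. They were 226, 206, 241 and 295 at 2 weeks and 319, 314, 289, 423 and 223 at 3 months. At 6 months they ran from 219.9 over a median of 336 to 389.7. One library at 3 months and 1 at 6 months lay below the highest prediabetic library, so the groups overlapped narrowly. Lamb1 rose 1.67-fold at 3 months (95% interval 1.28 to 2.18, limma adjusted p = 0.0110) and 1.69-fold at 6 months (1.31 to 2.18, limma adjusted p = 0.0055). The 2-week mean of 242 ± 38.1 (SD, n = 4) lay between that of prediabetic rats, 187 ± 39.3 (n = 5), and those of the later stages, 314 ± 72.1 (n = 5) and 317 ± 66.0 (n = 6), and its log2 change of 0.38 did not pass (limma adjusted p = 0.635). Nor did the step from 2 weeks to 6 months (log2 0.37, limma adjusted p = 0.211).

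The alpha 2 chain, Lama2, which forms the laminin of muscle and nerve, was the member with the largest change at 3 months. Prediabetic livers held 73.3, 79.1, 93.8, 72.7 and 129 normalised counts, and those at 3 months 126, 209, 181, 203 and 103. Of the 5 libraries at 3 months, 3 lay above every prediabetic library and 2 lay below the highest. The rise was 1.80-fold (95% interval 1.27 to 2.56, limma adjusted p = 0.0227). It was no longer called without prediabetic replicate 4 (adjusted p = 0.0592) or without 3-month replicate 2, 3 or 4 (0.0629, 0.0509 and 0.0536, all by limma). At 6 months Lama2 ran from 91.4 over a median of 133 to 196, a log2 difference of 0.66 just outside the threshold (limma adjusted p = 0.0506). It passed without prediabetic replicate 5 (0.0305) or 6-month replicate 4 (0.0453) or 6 (0.0266), all limma adjusted p. At 2 weeks the values were 130.2, 90.8, 114 and 163 (log2 0.47, limma adjusted p = 0.658).

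Nidogen 1, Nid1, the linker between laminin and type IV collagen, rose at 3 months. It stood at 659.8, 474, 710.2, 698 and 889 normalised counts in prediabetic livers and at 1160.2, 1378, 932, 1094 and 675 at 3 months. At 3 months 4 of 5 libraries were above all prediabetic libraries, and replicate 5 was within their range. The change was 1.51-fold (95% interval 1.17 to 1.96, limma adjusted p = 0.0257). The call was lost without prediabetic replicate 2 (limma adjusted p = 0.0660), 3-month replicate 1 (0.0668) or 3-month replicate 2 (0.0763), and with only the prediabetic and 3-month groups in the fit (0.0758). At 6 months the values ran from 786 over 908 to 1082, and at 2 weeks they were 966, 634, 818 and 827. The log2 differences of 0.43 and 0.25 did not pass (limma adjusted p = 0.0773 and 0.749). Without prediabetic replicate 5 the 6-month difference of Nid1 passed (log2 0.53, limma adjusted p = 0.0459). Replicate 5 at 3 months had the lowest level of its group for Lama2, Lamb1, Nid1 and Lamc1 and the highest for Agrn.

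Agrin, Agrn, a large heparan sulfate proteoglycan best known from the neuromuscular junction and found in liver around bile ducts and vessels, was the only member called lower in any of the 5 comparisons. Its prediabetic values were 1589, 1317, 1570.0, 1309 and 1414 normalised counts, and at 6 months they ran from 1075 over a median of 1195 to 1289. All 6 libraries at 6 months lay below all 5 prediabetic libraries, as was the case for 5.17% of all genes. The fall was to 0.83-fold (95% interval 0.73 to 0.94, limma adjusted p = 0.0297). The 2-week values of 1585, 1306, 1378 and 1462 were also above every 6-month value, a pattern found in 5.05% of genes for that pair of groups, but the log2 difference of -0.27 did not pass (limma adjusted p = 0.0728). At 3 months Agrn was at 1262, 1262, 1108, 1211 and 1479 (log2 -0.19, limma adjusted p = 0.152). The 6-month call was lost without prediabetic replicate 1, 3 or 5 (limma adjusted p = 0.0773, 0.0754 and 0.0532), without 6-month replicate 1, 5 or 6 (0.0560, 0.0587 and 0.0641) and with only those groups in the fit (0.0537).

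The other rat members gave differences that did not pass at any stage. The gamma 1 chain, Lamc1, the usual partner of most alpha and beta chains described here, averaged 895 ± 141 (SD, n = 5) normalised counts in prediabetic rats and 814 ± 98.1 (n = 4), 824 ± 204 (n = 5) and 745 ± 39.6 (n = 6) at 2 weeks, 3 months and 6 months. Its 6-month log2 difference was -0.25 (95% interval -0.53 to 0.02, limma adjusted p = 0.181). The beta 2 chain, Lamb2, known from synapse and kidney filter, stayed between means of 378 and 417, and its 95% interval at 6 months ran from -0.13 to 0.40 on the log2 scale. The alpha 5 chain, Lama5, the main alpha chain of many adult epithelia and vessels, had its highest mean at 2 weeks, 441 ± 128 (n = 4), and its lowest at 3 months, 261 ± 78.1 (n = 5), against 322 ± 104 (n = 5) before diabetes. Nidogen 2, Nid2, a second laminin linker, also had its highest mean at 2 weeks, 119 ± 31.3 (n = 4) against 93.0 ± 26.0 (n = 5), and 87.9 ± 23.3 (n = 6) at 6 months. None of these intervals excluded 0.

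Hspg2 may be present in the rat table under another name. RefSeq (GRCr8) lists AABR07073181.1 as a synonym of Hspg2, and the rat table has a row of that name, which is given apart from the members. It averaged 107 ± 59.5 (SD, n = 5) normalised counts in prediabetic rats, 127 ± 51.8 (n = 4) at 2 weeks, 181 ± 45.7 (n = 5) at 3 months and 118 ± 60.6 (n = 6) at 6 months. Prediabetic replicate 2 was at 16.3, against 93.8 to 164 in the other prediabetic livers. The log2 difference at 3 months, 1.06, did not pass (limma adjusted p = 0.150).

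In mice treated with LNA-29 the gamma 1 chain and nidogen 1 were higher than in controls. These were 2 of 10 members, where 2.43% of all genes were called, 1.57% as higher. For both, every treated library lay above every control library, which 2.40% of all genes did. The median log2 change was 0.26 over the members and 0.00 over all genes.

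Lamc1, which is also in the list of reported miR-29 targets, stood at 1293, 1132, 1278, 1372 and 1450.3 normalised counts after LNA-29. Controls ran from 797 over a median of 929 to 1010.4. The lowest treated library lay above the highest control. Lamc1 rose 1.42-fold (95% interval 1.27 to 1.59, limma adjusted p = 0.0057).

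Nid1 stood at 2100.0, 1533, 2086, 2015 and 2233 normalised counts after LNA-29, against 1085 over a median of 1404 to 1446 in controls. LNA-29 replicate 2 was close to the controls and the other 4 libraries were well above them. Nid1 rose 1.48-fold (95% interval 1.27 to 1.72, limma adjusted p = 0.0158). Its call was lost, narrowly, without LNA-29 replicate 3 or 5 (limma adjusted p = 0.0501 and 0.0510).

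**Figure D2:**
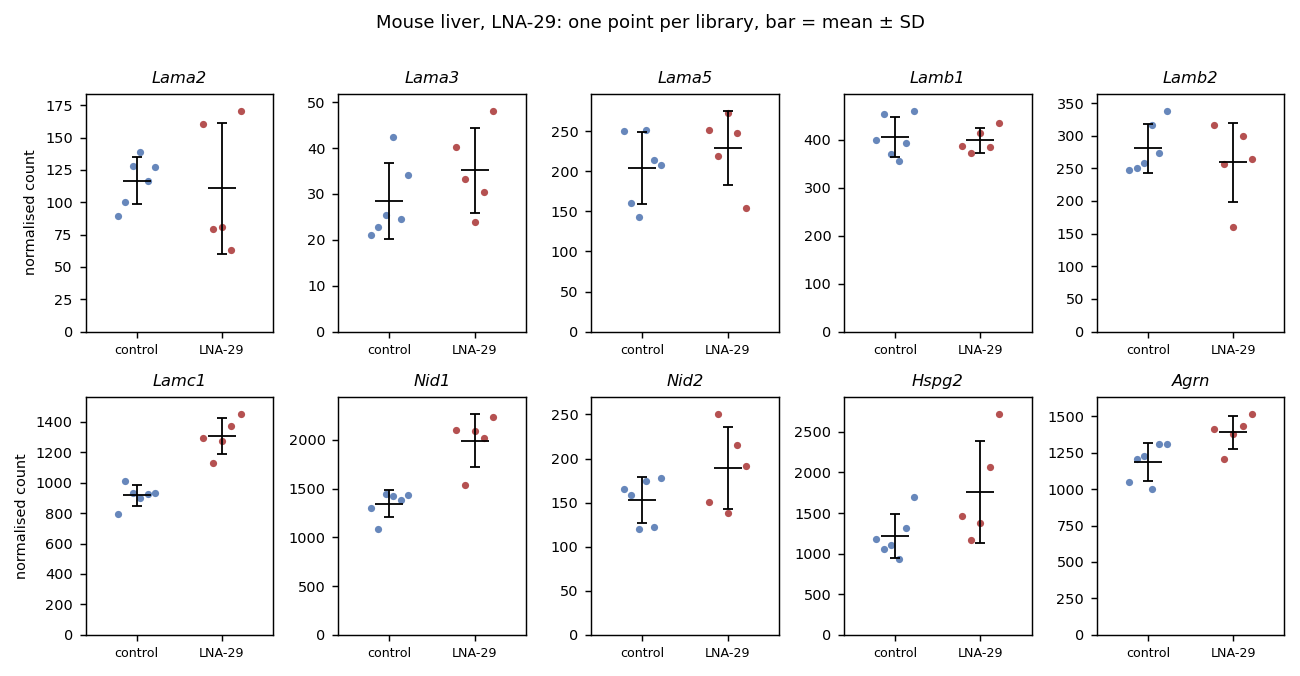
Normalised counts (vertical axis, from 0) of the 10 members in 6 control and 5 LNA-29 mouse livers; points are libraries, and horizontal marks with bars are means ± SD. Lamc1 and Nid1 separate the groups without overlap, with means of 1305 and 1993 after LNA-29 against 917 and 1346.

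Both proteoglycans had higher means after LNA-29 without passing the test. Perlecan, Hspg2, was at 1469, 1170.3, 1383, 2064 and 2717 normalised counts, against 933 over a median of 1139 to 1699.7 in controls. The treated libraries spread widely, and the log2 difference of 0.50 did not pass (95% interval 0.05 to 0.94, limma adjusted p = 0.208). Agrn was at 1415, 1209, 1381, 1431 and 1514, against 1004 over 1217 to 1308, a log2 difference of 0.24 that did not pass either (95% interval 0.05 to 0.42, limma adjusted p = 0.154). LNA-29 replicate 2 had the lowest treated value for Lamc1, Nid1, Hspg2, Agrn and Lamb1. It had the highest for Nid2 (250) and was neither lowest nor highest for Lama2, Lama3, Lama5 and Lamb2.

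The remaining members showed no difference that passed. The beta 1 chain was at 399 ± 25.5 (SD, n = 5) normalised counts after LNA-29 and 406 ± 42.7 (n = 6) in controls; the interval of its log2 difference, -0.20 to 0.16, excludes a rise as large as that of Lamc1. Lamb2 was at 259 ± 60.6 against 281 ± 37.7, and Lama5 at 229 ± 45.8 against 205 ± 45.0. Lama2 was at 161, 79.3, 81.0, 62.9 and 170.5 in treated livers, which lay both above and below the control range of 89.7 to 139. Lama3, an alpha chain of epithelial laminin, was low in both groups, at 35.2 ± 9.27 and 28.5 ± 8.23. Nid2 was at 189 ± 46.2 and 153 ± 25.7 (log2 0.29, limma adjusted p = 0.382).

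**Figure D3:**
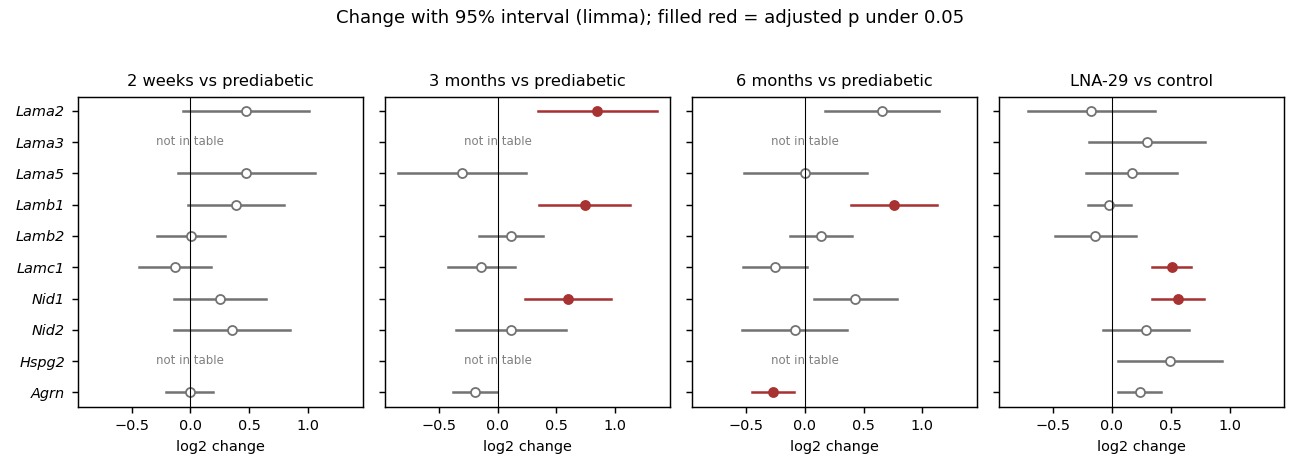
log2 change (horizontal axis) of each member in 4 comparisons, with 95% intervals from limma; filled red points have an adjusted p under 0.05, and 2 members have no row in rats. Lamb1 is called at 3 and 6 months with log2 changes of 0.74 and 0.76 but lies at -0.02 with LNA-29, where Lamc1 (0.51) and Nid1 (0.56) are called.

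The beta 1 chain was thus called in diabetic rats and the gamma 1 chain, which sits in the same trimers, with LNA-29. Their ratio within each library was computed after these values were seen and is a description without a test. Each ratio change restates the log2 changes of the 2 genes, which were picked from these calls. Separation of groups and single omissions therefore add no support to those calls, and no share over other gene pairs was computed. Whether the ratio changes differ between the experiments was not tested. The log2 of Lamb1 over Lamc1 was -2.27 ± 0.39 (SD, n = 5) in prediabetic rats, -1.75 ± 0.27 (n = 4) at 2 weeks, -1.39 ± 0.38 (n = 5) at 3 months and -1.25 ± 0.37 (n = 6) at 6 months. The 6-month libraries, from -1.78 to -0.86, lay just above the prediabetic ones, from -2.84 to -1.81. With LNA-29 the ratio was lower, -1.70 ± 0.09 (n = 5) against -1.18 ± 0.15 (n = 6), and the groups did not overlap (-1.83 to -1.60 against -1.33 to -0.99). Leaving out any 1 library moved the difference between 0.73 and 0.99 at 3 months, between 0.87 and 1.13 at 6 months and between -0.56 and -0.49 with LNA-29. The tables were normalised apart, so only changes of the ratio within a table are set side by side.

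Of the 2 other laminin chains reported here in rats, 1 fell at the later stages, by more than any member changed. Lamb3, the beta chain of the epithelial laminin that anchors skin, ran from 76.5 over a median of 104 to 136 normalised counts in prediabetic rats, from 16.6 over 35.5 to 52.0 at 3 months and from 14.3 over 32.9 to 42.8 at 6 months. The ranges at the later stages did not meet that of the prediabetic livers. Such separation, lower at 6 months, was found in 5.17% of all genes, and its share at 3 months is not given here. Lamb3 fell by 1.69 and 1.91 on the log2 scale (limma adjusted p = 0.00354 and 0.000692), where 16.5% and 21.1% of all genes were called. With LNA-29 limma called 0 of 4 such chains, 0 of them at an unadjusted p under 0.05; the lowest p belonged to Lamb3 (log2 0.89, limma adjusted p = 0.303).

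Of the type IV collagens, which nidogen binds, Col4a1 and Col4a2 rose at 3 months of diabetes and with LNA-29. At 3 months Col4a1 and Col4a2, which are transcribed from a shared promoter and form the common collagen IV trimer, rose by log2 0.72 each, 2 of 7 tested basement membrane collagens (limma adjusted p = 0.0126 and 0.0230). At 6 months neither passed (log2 0.48 and 0.40, limma adjusted p = 0.0619 and 0.165). Col18a1, the precursor of endostatin, then rose by log2 0.34 (limma adjusted p = 0.0432), 1 of 7. Of all genes 16.5% were called at 3 months, 21.1% at 6 months and 2.43% with LNA-29. With LNA-29 3 of 8 rose: Col4a5 (log2 0.91), Col4a1 (0.67) and Col4a2 (0.58), with limma adjusted p between 0.0188 and 0.0256. Col4a1 was at 3417 ± 506 normalised counts (SD, n = 5) after LNA-29 against 2165 ± 426 (n = 6).

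Of 14 tested other basement membrane proteins, Frem1 (log2 1.30) and peroxidasin, Pxdn (0.85), an enzyme that crosslinks collagen IV, rose at 3 months, and Vwa1 rose at 6 months (1.10). The calls were 2 of 14 at 3 months and 1 of 14 at 6 months, where 16.5% and 21.1% of all genes were called. With LNA-29 Sparc, a collagen-binding matrix protein, rose from 1770.1 ± 138 (SD, n = 6) to 4250.4 ± 578 normalised counts (n = 5), log2 1.26. Nephronectin, Npnt (0.94), and Tinagl1 (0.57) also rose, 3 of 14, where 2.43% of all genes were called.

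Among receptors of laminin and agrin, 2 of 12 were called at 3 months and 3 of 12 at 6 months, shares near the 16.5% and 21.1% of all genes called at those stages. The syndecans Sdc1 and Sdc2, cell surface heparan sulfate proteoglycans, fell at 3 months (log2 -0.48 and -0.39) and at 6 months (-0.40 each), and integrin alpha 6, Itga6, a laminin receptor, rose at 6 months (0.71). With LNA-29, where 2.43% of all genes were called, limma called 0 of 13, the lowest p being that of Bcam (log2 0.29, adjusted p = 0.268). Of 17 tested genes of heparan sulfate synthesis and trimming, Extl2, B3gat3 and Xylt2 fell at 3 months (log2 -0.84, -0.35 and -0.27) and at 6 months (-0.77, -0.32 and -0.22). Sulf1, a sulfatase that trims heparan sulfate outside the cell, rose at 3 months (1.05), and Sulf2 and Hs6st1 rose at 6 months (0.58 and 0.59). The calls were 4 of 17 at 3 months and 5 of 17 at 6 months, where 16.5% and 21.1% of all genes were called. With LNA-29 limma called 0 of 18 such genes, B3gat3 having the lowest p (log2 0.30, adjusted p = 0.0666).

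Proteases that cleave basement membrane changed in both directions in diabetic rats. Of 9 tested, Mmp3 (log2 2.31), Mmp9 (2.03), cathepsin L, Ctsl (1.10), and Adamts1 (0.94) rose at 3 months, and Mmp15 (-1.01) and Ctsb (-0.37) fell. At 6 months Mmp9 (1.94), Ctsl (1.12) and Adamts1 (0.99) rose and Mmp15 fell (-0.99). The calls were 6 of 9 at 3 months and 4 of 9 at 6 months, where 16.5% and 21.1% of all genes were called. Mmp9 was low throughout, with a mean of 9.60 normalised counts before diabetes and 42.0 at 6 months. With LNA-29 limma called 0 of 10, Mmp2 having the lowest p (log2 0.78, adjusted p = 0.153). Between 2 weeks and 6 months the calls in these lists were Vwa1, which rose (log2 1.25), and Sdc2 (-0.37), Extl2 (-0.70) and Mmp15 (-1.02), which fell.

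**Figure D4:**
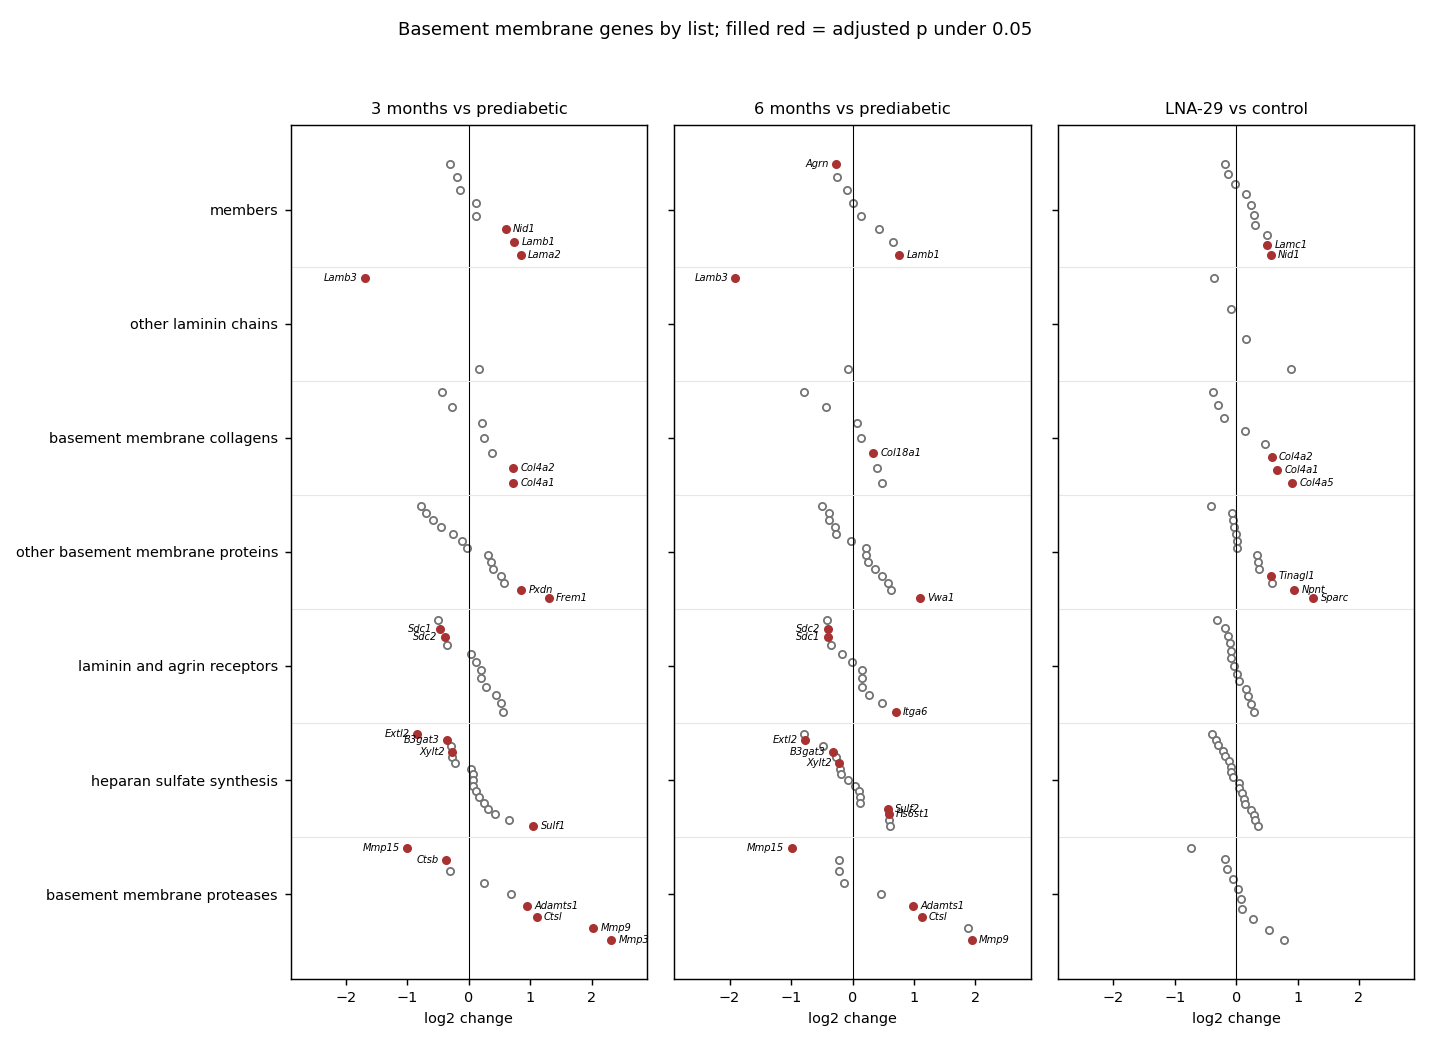
log2 change (horizontal axis) of the members and of 6 other lists of basement membrane genes (rows) at 3 and 6 months of diabetes and with LNA-29; filled red points, named, have a limma adjusted p under 0.05. Col4a1 and Col4a2 are filled in the 3-month and LNA-29 panels and Lamb3 in both rat panels, where it lies farthest to the left.

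Lamc1 was the only member in a list of 12 matrix genes reported as miR-29 targets, most of them collagens. With LNA-29 all 12 had a log2 change above 0, where 50.1% of all genes did, and 7 rose: Eln (log2 1.82), Sparc (1.26), Col3a1 (1.23), Col5a2 (0.74), Col4a1, Col4a2 and Lamc1. The change of Lamc1 was the smallest of the 7. With LNA-29 1.57% of all genes were called as higher. In rats 5 of 11 tested targets rose at 3 months and 2 of 11 at 6 months, and Lamc1 was not among them. Of all genes 7.76% and 11.0% were called as higher at those stages.

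Markers of liver cell types moved with the rat stages. Of all genes 16.5% were called at 3 months and 21.1% at 6 months, 7.76% and 11.0% as higher. In bulk tissue, more or fewer cells of a type cannot be told apart from more or less RNA per cell. Of stellate cell markers, the cells that make much of the liver's matrix, 6 of 9 rose at 3 months, led by Hgf (log2 1.43), Rgs5 (1.11) and Reln (0.97), and 6 of 9 at 6 months. Their summed level ran from 6738 to 10284 normalised counts in prediabetic rats, from 8789 to 11531 at 2 weeks, from 11203 to 15187 at 3 months and from 9368 to 14561 at 6 months. The 3-month sums lay above all prediabetic sums. Vascular endothelial markers rose in 3 of 6 at 3 months (Wnt9b 1.06, Rspo3 0.90 and Vwf 0.79), with sums of 1985 to 2747 before and 2783 to 3905 at 3 months, and in 2 of 6 at 6 months, with sums of 2482 to 3616. Bile duct markers rose in 1 of 6 at 3 months and 3 of 6 at 6 months (Krt19 2.01, Sox9 1.86 and Cftr 1.22), with sums of 899.6 to 1593 before diabetes, 957 to 2965 at 3 months and 1377 to 2491 at 6 months. Kupffer cell and macrophage markers rose in 6 of 7 at both stages, led by Marco (1.62 and 1.82), with sums of 8780.2 to 12420 before, 11737 to 28695 at 3 months and 12617 to 36007 at 6 months. Of 2 tested neutrophil markers both rose (S100a9 3.22 and 2.91), with sums of 34.0 to 92.2, then 168 to 2632 and 130.1 to 1529. Sinusoidal endothelial markers rose in 1 of 8 at both stages (Lyve1 0.44 and 0.39), with sums of 12955 to 14975 before, 14954 to 20583 at 3 months and 13877 to 18576 at 6 months. No gene of these 6 lists was at 0 in every library. The part of these cell types in the changes of Lama2, Lamb1, Nid1 and Agrn was not tested.

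The remaining lists gave few calls in rats, where 16.5% and 21.1% of all genes were called at 3 and 6 months. Hepatocyte markers, which define the labelled tissue, summed to between 4199935 and 9164648 normalised counts in every rat library and to between 4661605 and 7568567 in every mouse library. Of 8 in rats, Ttr fell at 3 and 6 months (log2 -1.32 and -1.22) and Fgb rose at 6 months (1.33). Among portal fibroblast markers Dpt fell (-1.05 and -0.90, 1 of 3). Of these 3 markers, 2 lay below 0 at 3 months and 1 at 6 months, with list medians of -0.02 and 0.34. Among red blood cell markers Slc4a1 rose (1.67 and 1.77, 1 of 5), while 3 of 5 lay below 0 at 3 months and 4 of 5 at 6 months. The medians of the red blood cell list were -0.07 and -0.43 on the log2 scale. Limma called 0 of 5 smooth muscle, 0 of 1 mesothelial and 0 of 4 lymphocyte markers at both stages. One adipocyte marker, Cfd, rose at 6 months (0.69) and 1 acinar marker, Cela1, fell (-0.99), while 2 of 5 adipocyte and 3 of 6 acinar rows were at 0 in every rat library. None of the lists' genes passed at 2 weeks.

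With LNA-29 the marker lists gave 2 calls, where 2.43% of all genes were called. Limma called 0 of 9 stellate cell markers (lowest p Des, log2 0.31, adjusted p = 0.168), and their sums, 11493 to 15585 after LNA-29 and 11888 to 14006 in controls, overlapped. Clec4g was the 1 of 8 sinusoidal endothelial markers that rose (log2 0.47), with sums of 12631 to 17296 against 12649 to 15234, and Cela2a the 1 of 2 acinar markers (1.37). Limma called 0 of 7 hepatocyte, 0 of 4 portal fibroblast, 0 of 4 smooth muscle, 0 of 7 vascular endothelial, 0 of 5 bile duct, 0 of 4 mesothelial, 0 of 7 Kupffer cell, 0 of 5 lymphocyte, 0 of 2 neutrophil and 0 of 6 red blood cell markers. All 4 smooth muscle markers had a log2 change above 0 (median 0.84), with sums of 237 to 1453 against 165 to 634. All 5 lymphocyte markers did too (median 0.57), while 3 of 4 mesothelial markers lay below 0 (median -1.09). Adipocyte markers were too low to test (0 of 5), with sums of 1.91 to 70.5 against 0.88 to 5.35. The part of these cell types in the rise of Lamc1 and Nid1 was not tested.

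Among the 3 rat members that rose at 3 months, the Pearson r of log2 levels over 20 libraries was 0.79 for Lama2 with Nid1, 0.73 for Lama2 with Lamb1 and 0.55 for Lamb1 with Nid1. Within stages these were 0.65, 0.50 and 0.17, so Lamb1 and Nid1 followed each other little inside a stage. Lama2 also followed Lamb2, which did not pass (r = 0.70, and 0.74 within stages). Lamb1 and Agrn ran against each other (r = -0.65, and -0.36 within stages). Over 11 mouse libraries Lamc1 followed Nid1 (r = 0.86) and Agrn (0.82), and Hspg2 followed Agrn (0.82); within groups these were 0.35, 0.72 and 0.72. These values describe libraries that share stages and scaling and carry no test.

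The genes outside the set whose levels were most like the mean standardised log2 level of the members over the 20 rat libraries were Col3a1 (r = 0.855), Col5a2 (0.834), AABR07068316.1 (0.832), Ankrd1 (0.813) and Col6a1 (0.797). Over the 11 mouse libraries they were Cers5 (0.893), BC051226 (0.886), Fstl1 (0.883), Igfbp7 (0.879) and Cpne2 (0.868). Of these 10, 3 are fibrillar or beaded-filament collagens, all in rats. They were picked as the highest r out of 13640 rat and 14596 mouse genes tested, less the members. High values were thus to be expected of them, more so over 11 libraries than over 20. How many genes would reach such r by chance was not tested.

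The values behind these comparisons sum, in units of 1000000 normalised counts, to between 37.6 and 49.9 per library in rats and between 43.3 and 52.8 in mice. Within groups, libraries correlated with a mean r of at least 0.959; the lowest was prediabetic replicate 2. Scaling all libraries to 1 sum shifted the median of all genes by -0.18 on the log2 scale between 6 months and 2 weeks, and moved the share of called genes that were higher from 47.1% to 62.5% at 3 months, from 52.3% to 33.8% at 6 months, from 52.9% to 15.95% between 6 months and 2 weeks, and from 64.5% to 78.6% with LNA-29. The calls of Lamb1, Lama2, Nid1 and Agrn in rats and of Lamc1 and Nid1 in mice kept their direction under it.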

How the data were processed

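Liver RNA libraries were prepared with the Illumina TruSeq polyA+ kit, per the labels' protocols. STAR, Salmon and DESeq2 are named as tools, and mm9, mm10, rn6 and hg19 as builds, in the submitters' processing notes; which tool or build made which table, and in which version, is not given in the sources used here. The deposited values are a signal, normalised counts made by the authors that are not whole numbers, so no count model was run and the depth in reads is unknown. No per-sample column was left out (0 unused), and the small RNA libraries were not used here. Sequences came from RefSeq tables (GRCr8) by symbol.

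Groups came from sample titles. Values were taken as log2(value + 1), only genes averaging 10 or more across a table's libraries entered the test, and 1 limma model per table (version 3.58.1, R 4.3.3), holding every group and a trended variance, gave the 5 comparisons, with two-sided p adjusted by Benjamini-Hochberg over all tested genes and called under 0.05. Fold changes are on the log2(value + 1) scale, which understates low genes. Transcript lengths were not used, so levels are not compared between genes. The fit was checked on simulated data. Tables were tested apart. One gene of the lists is not reported here.

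The members, the lists and the rule for named genes (all members; up to 3 called genes per list, direction and comparison; where none was called, those with the smallest p; the 5 genes most like the members' mean) were chosen with earlier results of these data known. Alternatives were other pseudocounts (10 and 0.1), no filter or a mean of at least 100, rescaling by median of ratios or by sum, no variance trend, the replicate number as a block, only the groups compared, and each library left out in turn. Libraries with the same number did not correlate over 0.1 in every pair of any comparison, so the numbers were not taken as pairs.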

Additional observations from a re-analysis of the deposited data

Results flagged for a closer look

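Of 52 groups of a member's values with 4 to 10 libraries, 1 had a library far from the rest, where chance flags about 1 in 20 such groups. Lamc1 in 2-week replicate 3 stood at 961 normalised counts, against 763 to 766 in the other 3 libraries of that stage. Without it the log2 difference of Lamc1 between 2 weeks and prediabetic was -0.21 in place of -0.13, and neither passed (limma adjusted p = 0.760 and 0.858).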

How the results depend on the processing

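Lamb1 was called at 3 and 6 months in all 9 settings and all 10 and 11 single omissions, and Lamc1 with LNA-29 in 7 of 8 settings and all 11 omissions. The number of members called ranged over omissions from 0 to 0 at 2 weeks, 1 to 3 at 3 months (1, Lamb1, without 3-month replicate 2), 1 to 3 at 6 months and 1 to 2 with LNA-29. It was 1 at 6 months with only those groups in the fit, 1 between 6 months and 2 weeks with sum scaling (Agrn), and 1 with LNA-29 under the replicate block, where Lamc1 was lost (limma adjusted p = 0.0622). All genes called ranged over omissions from 0 to 3 at 2 weeks, 1456 to 2389 at 3 months, 1919 to 3567 at 6 months, 317 to 1716 between 6 months and 2 weeks and 120 to 540 with LNA-29. They fell below the reported count by over 1.5 times without 3-month replicate 1 (1456), and, between 6 months and 2 weeks, without 2-week replicate 1, 2 or 4 (474, 317 and 712) or 6-month replicate 5 or 6 (600 and 749). With LNA-29 they did so without any control of replicates 1 to 4 (164 to 224) and without LNA-29 replicate 1, 3, 4 or 5 (120 to 194), and rose without LNA-29 replicate 2 (540). With the replicate block 574 genes were called between 6 months and 2 weeks and 70 with LNA-29; Agrn at 6 months was lost (adjusted p = 0.0910) and Lama2 at 6 months gained (0.0478). Not every library correlated best with its own number (1 of 5 pairs with LNA-29). The deviations of same-numbered libraries correlated between -0.18 (3 months) and 0.22 (6 months, where 3 of 5 pairs were over 0.1). Sum scaling gave 2501 (399 higher, 2102 lower) and 182, and LNA-29 gave 212 without filter and 195 without variance trend. Signs that turned belonged to differences that did not pass. With sum scaling they were Agrn 0.073 at 2 weeks, Lama5 -0.094 at 6 months, Lamb2 -0.048 and Nid1 -0.0029 between 6 months and 2 weeks, and Lamb1 0.017 with LNA-29. With the replicate block they were Agrn 0.0054 at 2 weeks, Nid2 0.043 at 6 months and Lamb1 0.016 with LNA-29. Replicate number 6 occurs in only 1 group per table, so the block fits that library by itself. Nid2 and Lamb1 thus had the same log2 values as without 6-month replicate 6 and without control replicate 6. Agrn and Lama2 at 6 months likewise matched the omission of 6-month replicate 6 (-0.24 and 0.78). Over omissions Agrn ran from -0.055 to 0.037 and Lamb2 from -0.090 to 0.063 at 2 weeks, Lama5 from -0.16 to 0.16 and Nid2 from -0.18 to 0.053 at 6 months, and Lamb1 from -0.057 to 0.016 and Lamb2 from -0.22 to 0.024 with LNA-29. The cause of the other turned signs was not tested.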
